A study of Sus scrofa with 8 samples.

Results

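The genes described here encode core components of basement membranes. They are 4 laminin chains (LAMA1, LAMA5, LAMB1 and LAMC1), 3 collagen IV chains (COL4A1, COL4A2 and COL4A6), perlecan (HSPG2), a nidogen (NID2) and collagen XVIII (COL18A1). Members were taken by symbol from the pig Ensembl gene names, and 9 of the 10 have a named row among the 24358 genes counted. COL4A1 was not analysed here.

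Basement membranes are thin sheets of extracellular matrix on which epithelial cells and early embryonic cells rest. Laminins are trimers of an alpha, a beta and a gamma chain that polymerise at the cell surface, collagen IV forms a crosslinked network, and nidogens and perlecan bind both. Laminin with the LAMA1 chain is made by the early embryo and its extraembryonic endoderm, whereas laminin with the LAMA5 chain supports adhesion and self-renewal of cultured pluripotent stem cells, and both share the LAMB1 and LAMC1 chains.

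According to the methods, RNA-seq was performed on DOX-hLIF-2i piPSCs. These pig induced pluripotent cells were reprogrammed from embryonic fibroblasts with an OCT4-tdTomato reporter and depend on doxycycline-induced OSKM factors. The IRF-1 overexpressing cells (replicates 1 and 3) received PB-CAG-IRF1-Flag together with the transposase plasmid PCAGPBase, so that the ubiquitous CAG promoter drove Flag-tagged IRF-1 amplified from pig fibroblast cDNA. The control cells (replicates 6 and 8) received the empty PB-CAG-Flag, and both were selected with puromycin. The study assigns libraries to the groups by the numbers in their titles, whereas the genotype label is IRF-1 overexpression for all 4 libraries and the series text calls the controls WT. The growth label names a different culture system (LCDMV) from the one in the methods, and the treatment label calls the cells PC-iPS cells, so both the medium and the identity of the sequenced cells are uncertain. The question addressed was how the transcriptome differs with IRF-1 overexpression.

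Counted reads numbered 24923319 and 20858333 in the overexpressing libraries (replicates 1 and 3) and 15925429 and 17097669 in the controls (replicates 6 and 8). A single count is worth between 0.0402 and 0.064 CPM (counts scaled by the library total and its TMM factor). Mitochondrial genes took 8.62% and 7.57% of the reads in the overexpressing libraries against 6.29% and 6.68% in the controls, each with a 95% Wilson interval of at most 0.0119 percentage points to either side that covers counting error only. With the 37 mitochondrial genes and the 10 highest genes left out of the counts, all 9 members kept their call or lack of one, with log2 fold changes of -3.39 for LAMA5, -4.24 for HSPG2 and 1.12 for NID2. Nothing states that replicates came from separate cultures, so p-values measure only the spread between these libraries, which may be technical.

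IRF1 was examined first, as a check of the groups. It had 8206 and 5485 reads in the overexpressing libraries against 55 and 56 in the controls, or 297 ± 47.1 against 3.36 ± 0.225 CPM (mean ± SD of 2 libraries per group). The separation follows the grouping used here and not the genotype label. Of 15 pluripotent cell markers, 8 have a named row, and POU5F1, SOX2 and SALL4 were not analysed here. DNMT3B, the most abundant of them in CPM, had 1035 and 1006 CPM in the overexpressing libraries against 694 and 997 in the controls. NANOG had 8 and 11 counts against 5 and 9, near the floor of 3 counts.

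All 9 measured members had enough counts to be tested. In the IRF-1 overexpressing cells, 5 of the 9 were lower (LAMA5, LAMB1, HSPG2, COL4A6 and COL18A1) and 1 was higher (NID2), while LAMA1, LAMC1 and COL4A2 were not called. A call needed an adjusted p below 0.05 in the quasi-likelihood test of edgeR, with p-values adjusted over 13250 genes by the Benjamini-Hochberg method, and a fitted log2 fold change (log2FC) of 1 or more in size. Over all these genes, 10.6% were called lower and 8.61% higher. Both overexpressing libraries lay below both controls in CPM for 8 of the 9 members and above them for 1, against 33.8% and 34.8% of all genes tested. The members' median log2FC was -1.95, and that of all genes tested was -0.0016. The members were chosen with earlier results of these data known, so these comparisons with all genes are descriptive and test nothing. The summed level of the 9 members was 1418 and 1625 CPM in the overexpressing libraries against 5636 and 4437 CPM in the controls. In bulk RNA, fewer cells that express a gene and less RNA per cell cannot be told apart.

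**Figure D1:**
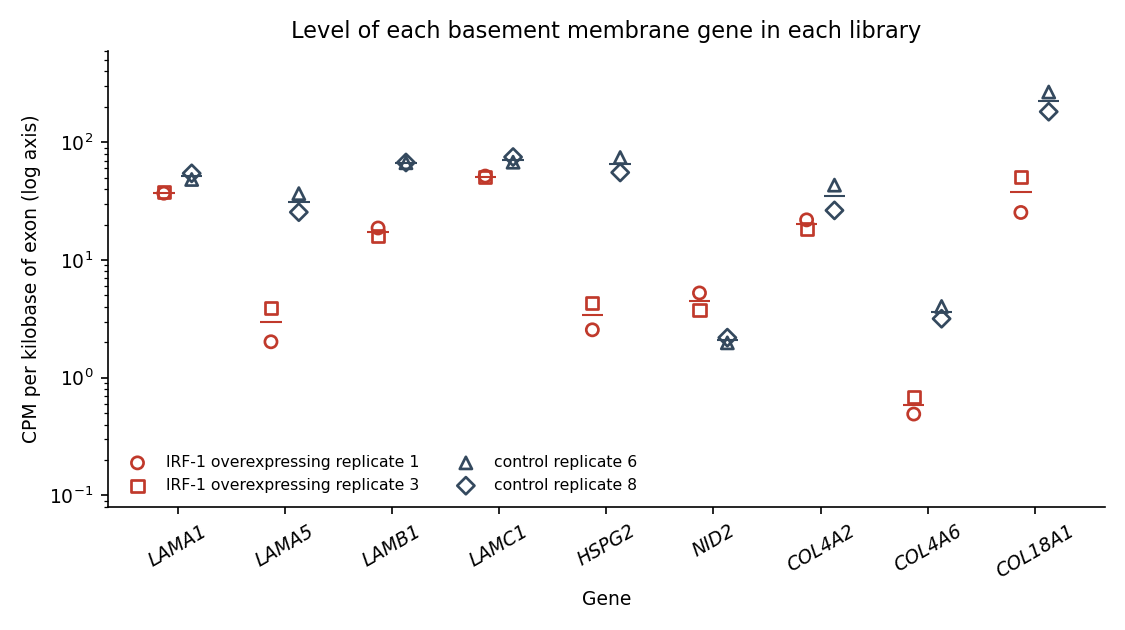
Level of each of the 9 measured members in each library, in CPM per kilobase of exon on a log axis; open symbols are libraries (red, IRF-1 overexpressing; dark, control) and short lines are group means of 2 libraries. The red and dark symbols lie farthest apart for HSPG2 and LAMA5, and NID2 is the member with the red symbols above the dark ones.

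The alpha chains distinguish the laminins and carry the domains that bind cell surface receptors. In mean CPM, LAMA5 was 10.5-fold lower in the IRF-1 overexpressing cells and LAMA1 1.38-fold lower, and of these LAMA5 was called. LAMA1 (ENSSSCG00000034767, chromosome 6, 100355065 to 100468454 of the Sscrofa11.1 build) had 8853 and 7549 reads in the overexpressing libraries against 7283 and 9193 in the controls. That is 356 and 363 CPM against 466 and 526 CPM. The overexpressing libraries were close together and both below the controls. The log2FC of LAMA1 was -0.46 (SE 0.13, 95% interval -0.77 to -0.16, edgeR adjusted p = 0.032), which is under the fold minimum.

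LAMA5 (ENSSSCG00000032761, chromosome 17, 61698620 to 61747756) had 554 and 895 reads in the overexpressing libraries against 6324 and 4923 in the controls. Its level was 22.3 and 43.0 CPM against 405 and 281 CPM, so the groups were far apart although replicates of each also differed. The means were 32.7 ± 14.7 and 343 ± 87.2 CPM (mean ± SD of 2 libraries per group). The log2FC was -3.40 (SE 0.33, 95% interval -4.16 to -2.63, edgeR adjusted p = 0.000598). LAMA5 exons share 176 of their 11034 bases with an unnamed gene on the opposite strand, and the strand setting of the counting is not given in the sources used here.

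The contrast between the alpha chains was measured within each library, as the ratio of counts per kilobase of exon. LAMA1 exceeded LAMA5 by 18.3-fold and 9.65-fold in the overexpressing libraries against 1.32-fold and 2.14-fold in the controls. LAMA1 was thus the higher alpha chain of this pair in all 4 libraries, with a wider margin in both overexpressing ones. On the log2 scale the ratio was 3.73 ± 0.65 in the overexpressing cells and 0.75 ± 0.49 in the controls (mean ± SD of 2 libraries per group), a difference of 2.98 or 7.91-fold. An exact two-sided permutation test of the 4 libraries gave p = 0.333, the smallest value it can give with 2 against 2.

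The beta and gamma chains are common to both laminins. LAMB1 (ENSSSCG00000015444, chromosome 9, 107671320 to 107746867) had 2451 and 1752 reads in the overexpressing libraries against 5522 and 6216 in the controls. In CPM this is 98.7 and 84.2 against 353 and 355, with nearly equal controls and both overexpressing libraries far below them. LAMB1 fell 3.88-fold in mean CPM, with a log2FC of -1.95 (SE 0.14, 95% interval -2.29 to -1.62, edgeR adjusted p = 0.00025).

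LAMC1, on the same chromosome (ENSSSCG00000015555, chromosome 9, 124283137 to 124405967), had 10423 and 8530 counts against 8600 and 10648. Its level was 419.5 and 410.1 CPM in the overexpressing libraries against 550.4 and 609 CPM in the controls. The groups did not overlap, and the means lay 1.40-fold apart. The log2FC of LAMC1 was -0.48 (SE 0.13, 95% interval -0.78 to -0.19, edgeR adjusted p = 0.0252) and it was not called, as for LAMA1.

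LAMB1 and LAMC1 were close to equal per kilobase in the controls and apart in the overexpressing cells. The ratio of LAMB1 to LAMC1 was 0.362 and 0.316 in the overexpressing libraries against 0.989 and 0.899 in the controls. The mean log2 ratio was -1.56 ± 0.14 against -0.09 ± 0.10 (mean ± SD of 2 libraries per group), a difference of -1.48 or 2.79-fold (exact two-sided permutation p = 0.333, the smallest possible). Of the 3 chains LAMA1, LAMB1 and LAMC1, LAMB1 was thus the lowest per kilobase in the overexpressing cells, at 17.4 ± 1.94 CPM per kilobase against 37.3 ± 0.482 for LAMA1 and 51.1 ± 0.824 for LAMC1 (mean ± SD of 2 libraries). In the controls the same chains stood at 67.2 ± 0.264, 51.4 ± 4.36 and 71.4 ± 5.08 CPM per kilobase, so that LAMA1 was the lowest there.

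**Figure D2:**
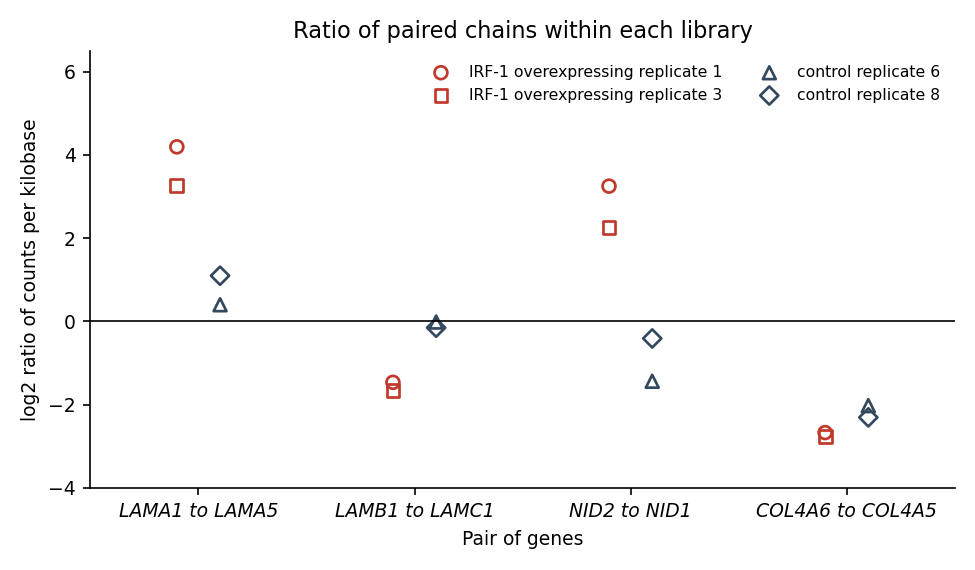
Log2 ratio of counts per kilobase for 4 pairs of genes within each library, with 0.5 added to each count; open symbols are libraries (red, IRF-1 overexpressing; dark, control) and the line at 0 marks equal levels. The ratio of LAMA1 to LAMA5 is 4.19 and 3.27 in the overexpressing libraries against 0.40 and 1.10 in the controls.

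Other laminin chains were compared with these members. Of these others 3 were tested, of which 1 was lower and 0 were higher. LAMB2, the beta chain that can take the place of LAMB1, had 1079 and 1293 reads in the overexpressing libraries against 2904 and 1982 in the controls. It fell from 149.6 ± 51.3 to 52.8 ± 13.2 CPM (mean ± SD of 2 libraries per group), with a fitted log2FC of -1.50 (SE 0.27, edgeR adjusted p = 0.00531). The call of LAMB2 was lost with glmTreat, which tests whether a change exceeds the minimum (adjusted p = 0.113), and LAMB2 shares 406 exon bases with USP19 on the same strand. Per kilobase LAMB2 stayed under LAMB1 in all 4 libraries, with means of 8.49 ± 2.13 CPM per kilobase in the overexpressing cells and 24.1 ± 8.25 in the controls.

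LAMA3, LAMB3, LAMA4, LAMB4 and LAMC3 had few counts beside LAMA1 and LAMA5. LAMA3, the alpha chain of epithelial anchoring laminin, had 32 and 47 reads in the overexpressing libraries against 7 and 12 in the controls (log2FC 1.62, SE 0.54, edgeR adjusted p = 0.0571). It was called higher with no filter on low counts (adjusted p = 0.0306) and with a filter of 1 CPM in 2 libraries (adjusted p = 0.0494), and its adjusted p in edgeR, DESeq2, limma-voom and glmTreat with all libraries ranged from 0.0306 to 0.361. LAMB3 had between 11 and 20 counts in each library, with overlapping groups and a log2FC of -0.27 (SE 0.51, edgeR adjusted p = 0.733) that turned to 0.14 without control replicate 8. LAMA4 had 4 and 3 counts against 7 and 6, LAMB4 3 and 2 against 8 and 20, and LAMC3 2 and 2 against 1 and 2, and none of these 3 passed the filter of the reported fit. LAMB4 was called lower with no filter (log2FC -2.85, edgeR adjusted p = 0.0206) and without control replicate 6 (-3.32, adjusted p = 0.0260), and not without overexpressing replicate 1 or 3 (adjusted p = 0.152 and 0.137). LAMA2 was not analysed here.

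Collagen IV forms the network that gives basement membranes their tensile strength, and its commonest trimer holds the COL4A1 and COL4A2 chains. COL4A2 (ENSSSCG00000009545, chromosome 11, 76997126 to 77165491) had 5718 and 4005 reads in the overexpressing libraries against 7095 and 4843 in the controls. In CPM this is 230.2 and 192 against 454 and 277. The controls differed from each other more than the higher overexpressing library differed from the lower control, although the groups did not overlap. The log2FC was -0.79 (SE 0.23, 95% interval -1.33 to -0.25, edgeR adjusted p = 0.0373), under the fold minimum. COL4A2 was called lower without control replicate 8, at -1.09, and stood at -0.39 without control replicate 6. The ratio of COL4A1 to COL4A2 was not computed, since COL4A1 has no named row among the genes counted.

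COL4A6 (ENSSSCG00000012571, chromosome X, 88634928 to 88658941) encodes a chain of a rarer trimer with COL4A5. It had 57 and 67 reads in the overexpressing libraries against 294 and 259 in the controls. That is 2.29 and 3.22 CPM against 18.8 and 14.8 CPM, with the groups well apart although replicates of each also differed. COL4A6 fell 6.10-fold in mean CPM, with a log2FC of -2.61 (SE 0.30, 95% interval -3.30 to -1.92, edgeR adjusted p = 0.000999). Of its 4667 exon bases, 1319 are shared with an unnamed gene on the same strand and 538 with ATG4A on the opposite strand, so the assignment of reads in these stretches is uncertain. In RefSeq, COL4A6 runs from 88634925 to 88750938, so the counted gene model covers only part of that span. The models of HSPG2, LAMA1, LAMB1 and LAMA5 also lie within longer RefSeq spans, which for LAMB1 runs from 107670120 to 107747242.

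Of the other collagen IV chains, 3 of 3 were tested, 1 was lower and 0 were higher. COL4A5, which lies near COL4A6 on chromosome X (88958616 to 89183372), fell with it, from 110.4 ± 3.38 to 27.1 ± 7.64 CPM (mean ± SD of 2 libraries per group). Its log2FC was -2.03 (SE 0.21, edgeR adjusted p = 0.000672). The ratio of COL4A6 to COL4A5 per kilobase was 0.157 and 0.147 in the overexpressing libraries against 0.246 and 0.202 in the controls, a difference of -0.55 on the log2 scale (exact two-sided permutation p = 0.333, the smallest possible). The chains that join COL4A5 in the kidney and lung were low, with between 10 and 19 counts of COL4A3 and between 11 and 28 counts of COL4A4 in each library. Their groups overlapped, at log2FCs of -0.28 (SE 0.57, adjusted p = 0.748) and 0.15 (SE 0.56, adjusted p = 0.870) in edgeR. The direction of both turned with a library left out, COL4A3 to 0.35 without control replicate 6 and COL4A4 to -0.50 without overexpressing replicate 1. Exons of these neighbours share 164 bases on opposite strands. COL4A4 also shares 366 of its 6221 exon bases with an unnamed gene on the same strand.

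Perlecan, collagen XVIII and agrin are the heparan sulfate proteoglycans of basement membranes, which hold growth factors in the matrix. HSPG2 (ENSSSCG00000003514, chromosome 6, 79850757 to 79921097) had 830 and 1175 reads in the overexpressing libraries against 15187 and 12686 in the controls. In CPM this is 33.4 and 56.5 against 972 and 725. Even the higher overexpressing library was far below the lower control. HSPG2 fell from 849 ± 174 to 45.0 ± 16.3 CPM (mean ± SD of 2 libraries per group), which is 18.9-fold and the lowest log2FC among the members, at -4.24 (SE 0.29, 95% interval -4.90 to -3.58, edgeR adjusted p = 0.000201). The 95% interval of HSPG2 overlaps that of LAMA5, and the difference between their fold changes was not tested.

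COL18A1 (ENSSSCG00000038089, chromosome 13, 207907834 to 207985181), whose C-terminal fragment is endostatin, had 5666 and 9417 reads in the overexpressing libraries against 37597 and 28635 in the controls. Its level was 228 and 453 CPM against 2406 and 1637 CPM. The ratio between the overexpressing replicates was the widest between replicates of a group among the 9 members, and both were still far below the controls. COL18A1 fell 5.94-fold in mean CPM, with a log2FC of -2.57 (SE 0.33, 95% interval -3.34 to -1.81, edgeR adjusted p = 0.00146). When single libraries were left out, its value lay between -3.14 and -2.14. AGRN, which encodes agrin and is not a member, had 416 and 425 counts against 1173 and 1314 and fell likewise (log2FC -2.02, SE 0.16, edgeR adjusted p = 0.000349).

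Nidogens bind the laminin gamma chain and collagen IV and so link the networks. NID2 (ENSSSCG00000005030, chromosome 1, 181698940 to 181772768) had 671 and 405 reads in the overexpressing libraries against 159 and 197 in the controls. That is 27.0 and 19.5 CPM against 10.2 and 11.3 CPM. NID2 was the member with both overexpressing libraries above the controls, and replicate 1 was the higher of them. It rose 2.17-fold in mean CPM, with a log2FC of 1.12 (SE 0.23, 95% interval 0.57 to 1.66, edgeR adjusted p = 0.0103). The call was lost without overexpressing replicate 1 (log2FC 0.87, adjusted p = 0.0986) and with glmTreat (adjusted p = 0.678), over a range of adjusted p from 0.000146 to 0.678 under the alternatives. Exons of NID2 share 44 bases with RTRAF on the opposite strand.

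The other nidogen went the opposite way. NID1 had 96 and 115 reads in the overexpressing libraries against 590 and 358 in the controls. It fell from 29.1 ± 12.2 to 4.70 ± 1.18 CPM (mean ± SD of 2 libraries per group), with a fitted log2FC of -2.63 (SE 0.35, edgeR adjusted p = 0.00159). The ratio of NID2 to NID1 per kilobase was 9.50 and 4.79 in the overexpressing libraries against 0.369 and 0.752 in the controls, so NID2 was the higher nidogen in the overexpressing cells and NID1 in the controls. The difference in the log2 ratio was 3.68 or 12.8-fold (exact two-sided permutation p = 0.333, the smallest possible).

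**Figure D3:**
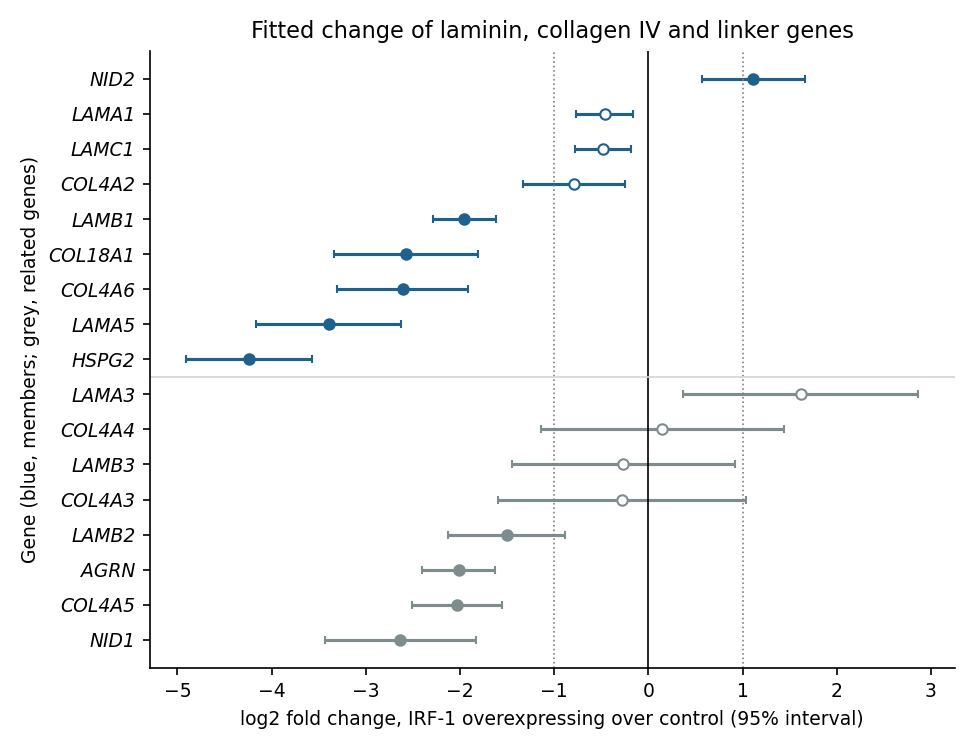
Fitted log2FC of the 9 measured members (blue) and of related genes (grey), IRF-1 overexpressing over control, with 95% intervals; filled points were called, open points were not, and dotted lines mark a log2FC of 1 in either direction. Member values run from -4.24 for HSPG2 to 1.12 for NID2.

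The order of the members by level differed between the groups. In the controls COL18A1 was the highest, at 225 ± 60.5 CPM per kilobase (mean ± SD of 2 libraries), and it stood apart from LAMC1, the next. LAMB1 and HSPG2, at 67.2 ± 0.264 and 64.9 ± 13.3 CPM per kilobase, overlapped, as did COL4A2 and LAMA5, at 34.9 ± 12.0 and 31.1 ± 7.90. COL4A6 (3.60 ± 0.607 CPM per kilobase) and NID2 (2.08 ± 0.149) were the lowest. In the overexpressing cells LAMC1 (51.1 ± 0.824 CPM per kilobase) had the highest mean. COL18A1, at 37.8 ± 17.7 CPM per kilobase, lay below it in replicate 1 (25.4 against 51.7) but level with it in replicate 3 (50.4 against 50.5), and overlapped LAMA1. COL4A2 (20.2 ± 2.54 CPM per kilobase) overlapped LAMB1. NID2 (4.52 ± 1.04 CPM per kilobase), HSPG2 (3.44 ± 1.25) and LAMA5 (2.96 ± 1.33) overlapped as neighbours in that order, and COL4A6 was the lowest at 0.591 ± 0.14. HSPG2 and LAMA5 thus stood beside NID2 in the overexpressing cells, while in the controls HSPG2 stood beside LAMB1, and LAMA5 beside COL4A2.

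Replicates of a group also differed in a pattern shared by several members. LAMA5, HSPG2, COL4A6 and COL18A1 were each higher in overexpressing replicate 3 than in replicate 1, and each was higher in control replicate 6 than in control replicate 8. How many of all genes tested share both directions was not counted. LAMB1, NID2 and COL4A2 were lower in overexpressing replicate 3 than in replicate 1. COL4A2 was also higher in control replicate 6 than in control replicate 8 (454 against 277 CPM). LAMA1 and LAMC1 differed little between the overexpressing replicates, and both were lower in control replicate 6 than in control replicate 8. These differences were smaller than those between the groups for each of the 6 called members.

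Genes that act with the members were counted from lists, beside shares over all genes tested of 10.6% lower and 8.61% higher. Of 23 other basement membrane components, 14 were tested, 11 were lower and 2 were higher, with a median log2FC of -1.36. The lowest were MATN2 (log2FC -2.93), NID1 and FBLN2 (-2.56), a matrilin, a nidogen and a fibulin, and the higher ones were NTN4 (1.83), a netrin that binds laminin gamma chains, and SMOC1 (1.12). With glmTreat, 5 of these components were lower and 1 was higher, and SMOC1 was not called. Of 15 basement membrane receptors, 12 were tested, 7 were lower (4 with glmTreat) and 0 were higher, with a median of -1.13. The lowest was BCAM (log2FC -4.25), a receptor for the LAMA5 chain, which had 185 and 183 reads in the overexpressing libraries against 3119 and 1911 in the controls. CD151 (-2.78), a tetraspanin partner of laminin-binding integrins, and ITGB4 (-2.40, and -3.08 without overexpressing replicate 3) followed.

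Collagen IV is hydroxylated, folded and exported by enzymes shared with other collagens and is crosslinked outside the cell. Of 26 genes for these steps, 19 were tested, 6 were lower and 1 was higher, with a median log2FC of -0.14. The higher gene was PXDN, the peroxidasin that forms sulfilimine crosslinks in collagen IV, with 12655 and 10066 reads in the overexpressing libraries against 3188 and 2984 in the controls (log2FC 1.41, SE 0.14, edgeR adjusted p = 0.000699). The lowest were the lysyl oxidase genes LOXL1 (log2FC -5.00), LOXL2 (-3.54) and LOXL3 (-2.67). LOX, another gene of this family, was not called, at 378 ± 6.80 CPM in the overexpressing cells against 416 ± 28.9 in the controls (mean ± SD of 2 libraries per group). Its log2FC was -0.14 (SE 0.13, edgeR adjusted p = 0.461). Of 22 genes of basement membrane turnover, 16 were tested, 12 were lower (6 with glmTreat) and 0 were higher, with a median of -1.41. The lowest were ADAMTS9 (log2FC -2.73), TIMP3 (-2.46, and -1.56 without control replicate 6) and MMP11 (-2.28).

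Markers of other cells that make basement membrane are given beside the members, with the same shares over all genes tested (10.6% lower and 8.61% higher) as background. Of 13 primitive and parietal endoderm markers, 10 have a named row and 4 were tested, with 1 lower (DAB2, log2FC -3.09) and 1 higher (CITED1, 2.00) and a median of -0.74. They summed to 47.1 and 65.5 CPM in the overexpressing libraries against 54.6 and 48.8 in the controls, mostly GATA6, while FOXA2, AFP and TTR had 0 counts in all 4 libraries and GATA4 had between 0 and 4. Of 11 endothelial markers, 9 have a named row and 6 were tested, with 2 lower, 0 higher and a median log2FC of -1.86. They summed to 4.35 and 8.37 CPM against 61.4 and 67.2 CPM, led by TEK with 2.21 and 5.63 against 54.7 and 62.2 CPM (log2FC -3.91, and -4.71 without overexpressing replicate 3), while PECAM1 had between 16 and 21 counts, ERG had 0 counts in all 4 libraries and CDH5 had 1 count in all.

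Of 16 fibroblast and feeder markers, 14 have a named row and 8 were tested, with 3 lower, 3 higher and a median log2FC of 0.10. They summed to 351 and 279 CPM in the overexpressing libraries against 364 and 298 in the controls. COL1A2 was the most abundant in overexpressing replicate 1 and FBN1 in the other libraries, and LUM and COL3A1 had at most 9 counts in a library. PDGFRB (log2FC -5.49, and -6.32 without overexpressing replicate 3 or -4.79 without control replicate 6) and COL1A1 (-1.97) were lower, and PRRX1 (1.62), COL5A2 (1.08) and COL1A2 (1.08) were higher. COL1A2 was not called without overexpressing replicate 1 (0.65) or control replicate 8 (0.78), COL5A2 was not called without the same libraries (1.10 and 0.80), and neither was called with glmTreat.

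Of 11 trophoblast markers, 10 have a named row and 6 were tested, with 3 lower, 1 higher and a median log2FC of -1.44. They summed to 310.2 and 1157 CPM in the overexpressing libraries against 15598 and 9553 in the controls, mostly the epithelial keratins KRT8 and KRT18, while CDX2 and HAND1 had 0 counts in all 4 libraries and KRT7 had at most 2. KRT8, KRT18 and TFAP2C were lower (log2FC -3.95, -5.77 and -2.82) and TFAP2A was higher (3.72). GATA3 was not called, at 9.22 ± 2.50 CPM in the overexpressing cells against 8.84 ± 3.61 in the controls (mean ± SD of 2 libraries per group). Its log2FC was 0.07 (SE 0.35, edgeR adjusted p = 0.911). KRT8 and KRT18 stood at -5.28 and -7.65 without overexpressing replicate 3 and at -3.25 and -4.96 without replicate 1. KRT8 and KRT18 shared the replicate pattern of LAMA5, HSPG2, COL4A6 and COL18A1, as did ITGB4 and LOXL2 from other lists. KRT8 had 250.1 CPM in overexpressing replicate 1 and 1014 in replicate 3, and KRT18 had 13.8 and 88.6. How common this pattern is among all genes was not counted.

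Of the 8 pluripotent cell markers with a named row, 7 were tested, with 3 lower, 0 higher and a median log2FC of -0.31. They summed to 1467 and 1500.4 CPM in the overexpressing libraries against 1729 and 1903 in the controls. ESRRB (log2FC -4.19), the epithelial cadherin CDH1 (-2.25, -1.66 without overexpressing replicate 1 and -3.21 without replicate 3) and LIN28A (-1.34, not called with glmTreat) were lower. The part of these marker genes, and of the cells they mark, in the lower levels of LAMA5, LAMB1, HSPG2, COL4A6 and COL18A1 was not tested.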

How the data were processed

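RNA-seq libraries of 2 groups with 2 libraries each were used. The values the authors deposited are raw counts for each gene and library, neither normalized nor pooled, together with exon lengths. According to the methods and the submitters' processing notes, reads were trimmed with trim_galore, mapped to Sus scrofa 11.1 with HISAT2 2.0.4 and counted with featureCounts 1.6.4. A second counting tool, htseq-count, is named there too, and its part in the deposited counts is not given in the sources used here. How strand and multi-mapped reads were handled, and which annotation release was used, is not given in the sources used here. The ChIP-Seq libraries were not analysed here.

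The table of gene names gave symbols to 14692 of the 24358 genes. Counts were scaled with TMM factors (0.982 to 1.02), filtered with filterByExpr by group and tested in edgeR 4.0.16 (R 4.3.3) with its quasi-likelihood test, p-values being adjusted over 13250 genes (Benjamini-Hochberg). The standard error is the size of the log2 fold change divided by the square root of F, and 95% intervals use the test's degrees of freedom. Ratios use counts per kilobase of exon with 0.5 added to each count. A count of 3 was taken as the floor (between 0.121 and 0.192 CPM), which covers counting error only. Replicates differed by more than counting noise (chi-square over its degrees of freedom 17.9 in the overexpressing cells and 31.3 in the controls) and were kept separate.

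Alternatives were no filter or a filter of 1 CPM in 2 libraries, DESeq2-type size factors or library size alone, the tests of DESeq2 1.42.0 and limma-voom (limma 3.58.1), glmTreat, no fold minimum, counts without the 37 mitochondrial genes and the 10 highest genes, and each library left out in turn. Python 3.11.15 was used for tables and plots.

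The members and the lists, 173 genes written from general knowledge, were chosen with earlier results of these data known. Named genes are the members, IRF1, other laminin and collagen IV chains, NID1 and AGRN, of which 1 is not reported here. From each other list they are the up to 3 highest and 3 lowest log2 fold changes among called genes that average 1 CPM or more, and for marker lists also the most abundant gene and defining markers at 0. NANOG, KRT7, GATA4, CDH5, LUM and COL3A1 are given as defining markers near 0, and PECAM1 as a defining marker with low counts. GATA3 is given as a defining marker that was not called, and LOX as an uncalled gene of the lysyl oxidase family. All of these were chosen after their values were seen.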

Additional observations from a re-analysis of the deposited data

How the results depend on the processing

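The 5 lower members kept their call under all 13 alternative fits. With no fold-change minimum 8 members were lower, the 3 added being LAMA1, LAMC1 and COL4A2, since only the minimum kept them out. Over all 13250 genes tested, 2054 were lower with no minimum and 1410 as reported. With glmTreat 0 members were higher, since the call of NID2 was lost. Leaving out single libraries gave 0 to 1 higher members and 5 to 6 lower ones, NID2 losing its call without overexpressing replicate 1 and COL4A2 gaining one without control replicate 8. Without either overexpressing replicate the adjusted p rose above 0.05 for LAMA1 (0.259 and 0.190), LAMC1 (0.201 and 0.192) and COL4A2 (0.0862 and 0.167), and for COL4A2 also without control replicate 6 (0.0651). No measured member changed sign under these 13 fits. A group left with 1 library was assumed to vary like the other group. The cause of these changes was not tested.

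With 5 added to each count the log2 ratio differences were 2.98 for LAMA1 to LAMA5, -1.48 for LAMB1 to LAMC1, 3.61 for NID2 to NID1 and -0.48 for COL4A6 to COL4A5. With single libraries left out they ranged from 2.52 to 3.44, -1.58 to -1.38, 3.17 to 4.19 and -0.70 to -0.41, which shows only how far the 2 libraries of a group lie apart. The ratio of COL4A1 to COL4A2 was not run.

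Over all genes, 611 were higher and 603 lower with glmTreat (1141 and 1410 as reported), and 1842 were higher and 2054 lower with no fold minimum. Under glmTreat, 5 other basement membrane components were lower (11 as reported) and 1 was higher (2), 4 receptors were lower (7), 6 turnover genes (12) and 0 other laminin chains (1). With no filter 2 other laminin chains were lower, and 1 was higher both there and with the filter of 1 CPM. With no filter 1 receptor was higher (0), and with no fold minimum 2 folding genes were (1). Endoderm markers lower numbered 2 (1) with library size alone and with either filter change, and fibroblast markers higher numbered 1 (3) with glmTreat. With single libraries left out, the ranges were 1 to 2 other laminin chains lower, 0 to 1 receptors and 0 to 1 turnover genes higher, 1 to 2 endoderm and 1 to 2 endothelial markers lower, and 1 to 3 fibroblast markers higher.

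No paired analysis was possible because the overexpressing and control libraries share no replicate number. Each group has 2 libraries, and the exact test cannot reach a p below 0.333. LAMA4, LAMB4 and LAMC3 did not pass the filter of the reported fit, and with no filter only LAMB4 of these was called.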
